A study of Mus musculus with 9 samples.

Results

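Acute-phase proteins are mainly plasma proteins whose production changes during inflammation, and 10 mouse genes of this group were followed here by symbol in the iris. These were Saa1, Saa2, Saa3, Hp, Hpx, Orm1, Orm2, Serpina3n, Serpina3g (whose product is intracellular) and Cp. They were 10 of the 18349 genes listed for each library, and 7 of them were among the 15010 genes with enough reads to be tested. Saa1, Saa2 and Orm2 had too few reads for the main test and are given by their counts. The RNA came from irises, trimmed of their outer edge, of C57BL/6J mice after corneal alkali injury (CAI) or a sham treatment. In CAI, NaOH was held on the cornea and the iris behind it becomes inflamed. Sham VEGFR3fl/fl mice received PBS in place of NaOH, injured VEGFR3fl/fl mice received 1 M NaOH, and injured VEGFR3iLECko mice received the same NaOH, with 3 libraries in each group and 3 irises pooled in each library. The animals of both genotypes carried floxed VEGFR3 alleles (gene symbol Flt4), and the VEGFR3iLECko mice also carried Prox1-CreERT2, a tamoxifen-activated recombinase driven from the lymphatic endothelial gene Prox1. Injury or PBS was given at 6 weeks of age with 0.5 μL on a 2 mm filter paper for 60 seconds, tamoxifen at 80 mg/kg on days 13 to 17, also to mice without Cre, and the irises were taken at week 10, 28 days after injury.

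Most acute-phase proteins are made by hepatocytes, and their genes are switched on by IL-6, which acts through gp130 and STAT3, and by IL-1 and TNF, which act through NF-κB and C/EBP factors. Several are also made outside the liver by macrophages, fibroblasts, astrocytes and epithelia at sites of injury. The products fall into protease inhibitors (Serpina3n, Serpina3g), lipid-binding serum amyloid A proteins (Saa1, Saa2, Saa3), scavengers of hemoglobin and heme (Hp, Hpx), lipocalins that carry small lipophilic molecules (Orm1, Orm2) and a copper-containing ferroxidase (Cp).

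Total counts ranged from 16617187 to 18306359 per library. Flt4 was not lower in the libraries labelled VEGFR3iLECko, with 20.9 to 27.9 CPM (reads scaled to library size) against 16.8 to 23.0 CPM in injured VEGFR3fl/fl and 13.4 to 15.6 CPM in Sham (VEGFR3iLECko against injured VEGFR3fl/fl, log2 fold change 0.34 ± 0.15 SE, adjusted p = 0.200), so these counts did not show the deletion. The 8 pigment cell markers summed to 27780 to 29740 CPM in Sham and 3412 to 7167 CPM in injured irises, and the 8 iris muscle markers to 7981 to 10300 CPM and 1666 to 3958 CPM. Macrophage markers (10 genes) summed to 494.9 to 509.3 CPM in Sham, 12180 to 20720 CPM in injured VEGFR3fl/fl and 7900 to 9817 CPM in VEGFR3iLECko. Most of each injured sum was Lyz2 alone, at 9114 to 17610 CPM in injured VEGFR3fl/fl and 6151 to 7940 CPM in VEGFR3iLECko. In Sham Lyz2 was at 136.4 to 143.6 CPM, so the sums mainly follow this 1 gene. In such whole-tissue RNA, more cells of one type and more RNA per cell cannot be told apart. The 14 hepatocyte markers summed to 146.9 to 221.2 CPM in Sham, 17.4 to 119.8 CPM in injured VEGFR3fl/fl and 22.3 to 34.5 CPM in VEGFR3iLECko, led by Ttr, which ocular epithelia also make. Cyp2e1 reached 14.4 to 25.4 CPM in Sham and at most 1.23 CPM in injured irises, Alb reached 10.5 CPM in Sham replicate 2 and 6.60 CPM in VEGFR3iLECko replicate 1, and Hnf4a and Cps1 did not exceed 0.734 and 0.176 CPM in any library.

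Injury was accompanied by higher levels of 5 of the 7 tested acute-phase genes, and none was downregulated. Of these, Saa3 (1, 0 and 1 counts in Sham), Serpina3g (5, 4 and 9), Orm1 (2, 8 and 0) and Hp (6, 19 and 11) passed the count filter through the injured libraries. A fall of these genes could hardly have been called, so the count and the median given here describe the tested genes only. Serpina3n, Serpina3g, Saa3, Hp and Orm1 were upregulated in injured versus Sham VEGFR3fl/fl irises, by a rule of more than 1.5-fold change with an adjusted p under 0.05, while Hpx and Cp were not. Across all tested genes, 22.1% were upregulated and 17.5% downregulated by the same rule, and 66.3% did not overlap between these groups. The median of the 7 tested members was 4.99 on the log2 fold change scale, against 0.01 over all tested genes. Downregulated members numbered 0 by edgeR's quasi-likelihood test, also 0 at an unadjusted p under 0.05 and 0 by DESeq2. Injured VEGFR3iLECko irises had 6 of 7 genes upregulated over the same Sham libraries, where 19.7% of all genes were upregulated, 15% downregulated and 66.5% did not overlap, and the gene added was Cp. In injured VEGFR3iLECko versus injured VEGFR3fl/fl irises 1 of 7, Cp, was upregulated and 0 were downregulated, against 0.573% and 0.466% of all genes, with 26.7% not overlapping. At an unadjusted p under 0.05 with more than 1.5-fold change, 1 member, Serpina3g, was lower in VEGFR3iLECko, as were 493 of all 15010 genes. DESeq2 called 0 members downregulated. The comparisons share libraries and are not independent of each other.

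**Figure D1:**
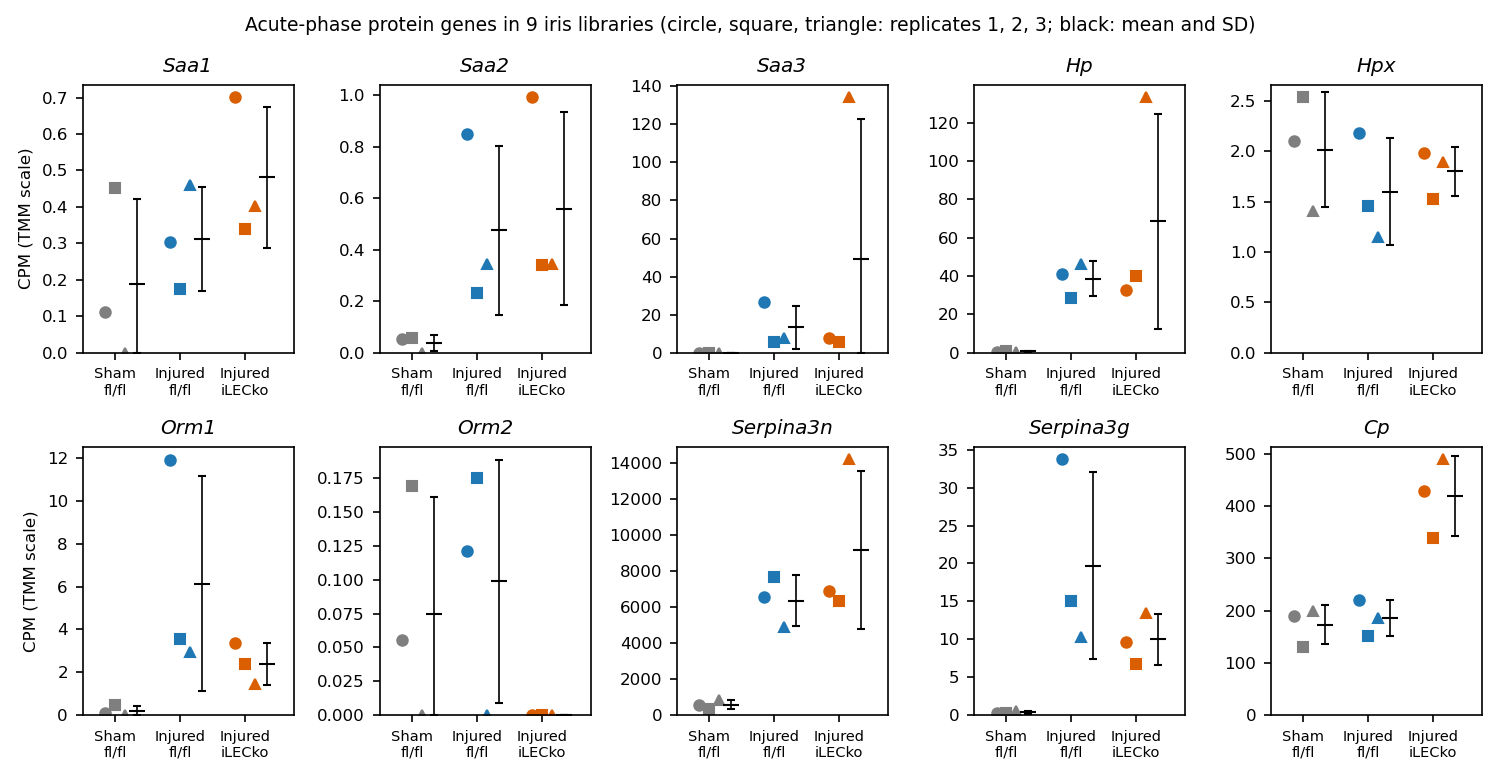
Level of each of the 10 acute-phase genes in CPM (y axis, linear, from 0) in the 9 iris libraries, grouped on the x axis as Sham VEGFR3fl/fl, injured VEGFR3fl/fl and injured VEGFR3iLECko. Circles, squares and triangles are replicates 1, 2 and 3, and black marks give the mean and SD of 3 libraries, with the lower bar stopped at 0. Cp separates the VEGFR3iLECko libraries (339.5 to 490.5 CPM) from the other 6 (131 to 221.2 CPM), and the triangle of VEGFR3iLECko stands far above its group for Saa3, Hp and Serpina3n.

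Serpina3n encodes a secreted serine protease inhibitor, a mouse counterpart of human α1-antichymotrypsin, whose targets include granzyme B. It lay at 548.3, 358.4 and 820.6 CPM in the Sham libraries, at 6558, 7660 and 4894 CPM in injured VEGFR3fl/fl and at 6922, 6365 and 14230 CPM in injured VEGFR3iLECko. Every injured library was above every Sham library. The means were 576 ± 232, 6371 ± 1392 and 9174 ± 4392 CPM (SD, n = 3), and injured versus Sham VEGFR3fl/fl differed 11.1-fold (log2 fold change 3.47 ± 0.41 SE, adjusted p = 8.37e-05). Serpina3n alone took 0.0377% to 0.0873% of all counted reads in Sham and 0.474% to 1.41% in injured irises. Ranked among all genes by length-corrected level, it held places 87 to 290 in the Sham libraries and places 1 to 12 in the injured libraries (281 to 922 and 5 to 28 with median transcript lengths). The injured genotypes overlapped (log2 fold change 0.53 ± 0.37 SE, adjusted p = 0.398), and the highest value, in VEGFR3iLECko replicate 3, was 1.86 times the next.

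Serpina3g (Spi2A) encodes an intracellular inhibitor that protects cells from lysosomal cathepsins released into the cytosol. It was near absent in Sham, at 0.277, 0.226 and 0.507 CPM, and reached 33.7, 15.1 and 10.3 CPM in injured VEGFR3fl/fl and 9.65, 6.79 and 13.5 CPM in VEGFR3iLECko. Both injured groups lay wholly above Sham, and they overlapped each other. Injured versus Sham VEGFR3fl/fl gave a log2 fold change of 5.84 ± 0.59 SE (adjusted p = 3.23e-05), and VEGFR3iLECko versus Sham gave 4.86 ± 0.59 SE (adjusted p = 0.000132). The difference between injured genotypes was -0.98 ± 0.42 SE (adjusted p = 0.194). Serpina3n and Serpina3g lie in the Serpina3 cluster on chromosome 12, at 104406729 to 104414329 and 104236245 to 104241939 (mm10). Of the longest Serpina3g transcript, 16.02% of 50-base windows also occur in other genes, most often Serpina3h with 8.67%, whereas for Serpina3n the share was 6.90%. Reads of Serpina3g may therefore have been divided among relatives. Of the Serpina3n windows, 2.53% also occur in Serpina3g, so Serpina3g may also have received Serpina3n reads. In the injured libraries Serpina3g had 120 to 556.05 counts and Serpina3n 85258 to 247395. The part of Serpina3n reads in the Serpina3g values was not tested.

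Among near relatives of these genes 8 of 13 were listed and 5 tested, and 2 were upregulated after injury, against 22.1% of all tested genes. These 2, Serpina3m (0, 2 and 3 counts in Sham) and Serpina3f (3, 3 and 0), passed the count filter through the injured libraries. A fall of them could hardly have been called, so the count describes the tested genes only. Serpina3m rose from 0, 0.113 and 0.169 CPM to 4.67, 3.34 and 1.84 CPM (log2 fold change 5.03 ± 1.06 SE, adjusted p = 0.00274), and Serpina3f rose from 0.166, 0.169 and 0 CPM to 4.45, 1.63 and 1.04 CPM (4.31 ± 0.78 SE, adjusted p = 0.00114). Serpina3i did not pass (adjusted p = 0.0569), with 0.277, 1.02 and 0.507 CPM in Sham and 4.17, 1.71 and 2.46 CPM in injured VEGFR3fl/fl, which did not overlap. Serpina3k was at 0.388, 2.88 and 0 CPM in Sham and 1.21, 0.410 and 0 CPM in injured VEGFR3fl/fl. Heph, the membrane-bound relative of Cp, gave a log2 fold change of -0.31 ± 0.23 SE (adjusted p = 0.269). None of the 5 was called between the injured genotypes by edgeR or DESeq2, and 0 had an unadjusted p under 0.05 with more than 1.5-fold change.

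Saa3 encodes the serum amyloid A form that in mice is made largely outside the liver, for example by macrophages. Counts were 1, 0 and 1 in Sham, 437, 95 and 136 in injured VEGFR3fl/fl and 129, 100 and 2332 in injured VEGFR3iLECko. It was therefore all but undetected in Sham and present in every injured library, and 1 library of each injured group stood well above its neighbors. With 668 reads against 2, the ratio of injured to Sham VEGFR3fl/fl was 351 (95% Clopper-Pearson interval 96.7 to 2900, counting error only), and 179 (49 to 1490) without injured VEGFR3fl/fl replicate 1. For VEGFR3iLECko over Sham it was 1310 (363 to 10900), and 176 (48.2 to 1460) without VEGFR3iLECko replicate 3. Both comparisons were called (adjusted p = 0.0135 and 0.00365), and the fitted log2 fold changes of 8.22 ± 2.35 and 10.11 ± 2.18 SE depend on how the near-0 Sham counts are treated. VEGFR3iLECko versus injured VEGFR3fl/fl gave a log2 fold change of 1.89 ± 1.10 SE (adjusted p = 0.310), and it became -1.01 ± 0.63 SE without VEGFR3iLECko replicate 3 (adjusted p = 0.419), so the direction of that difference rested on this library.

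Saa1 and Saa2, the main liver-derived forms, stayed at trace levels in all libraries. Saa1 had 2, 8 and 0 counts in Sham, 5, 3 and 8 in injured VEGFR3fl/fl and 12, 6 and 7 in VEGFR3iLECko, with overlapping groups. Saa2 had 1, 1 and 0 counts in Sham, 14, 4 and 6 in injured VEGFR3fl/fl and 17, 6 and 6 in VEGFR3iLECko, so that each injured library exceeded each Sham library. The ratio of injured to Sham VEGFR3fl/fl for Saa2 was 12.6 (95% interval 3.13 to 110, counting error only). An edgeR fit of every gene with a count called Saa2 (adjusted p = 0.0118) but not Saa1 (adjusted p = 0.528). The paralogs share 31.8% of the 50-base windows of the Saa2 transcript, so the split of reads between them is uncertain. Albumin, the leading hepatocyte transcript, was at 0.997, 10.5 and 0.0563 CPM in Sham, 2.49, 2.81 and 0 CPM in injured VEGFR3fl/fl and 6.60, 0.0566 and 0.0575 CPM in VEGFR3iLECko. The Sham and VEGFR3iLECko libraries with the most albumin were also those with the most Saa1 in their groups, whereas in injured VEGFR3fl/fl the library with the most albumin, replicate 2, had the least Saa1 and replicate 3, without albumin reads, had the most. The part of hepatocyte RNA in Saa1 was not tested. For Saa2 that held in VEGFR3iLECko, while injured VEGFR3fl/fl replicate 3 had Saa2 reads and no albumin read.

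Hp encodes haptoglobin, which binds free hemoglobin for uptake through the macrophage receptor CD163. It lay at 0.332, 1.07 and 0.619 CPM in Sham, 40.9, 28.6 and 46.4 CPM in injured VEGFR3fl/fl and 32.8, 39.9 and 133.3 CPM in VEGFR3iLECko. Every injured library was above every Sham library. Injured versus Sham VEGFR3fl/fl gave a log2 fold change of 5.83 ± 0.72 SE (adjusted p = 0.000110), and VEGFR3iLECko versus Sham gave 6.66 ± 0.72 SE (adjusted p = 6.48e-05). The injured genotypes overlapped (log2 fold change 0.83 ± 0.48 SE, adjusted p = 0.309), and without VEGFR3iLECko replicate 3 the value was -0.09 ± 0.26 SE. Red blood cell markers summed to 545.1 to 1201 CPM in Sham, 209.6 to 502.9 CPM in injured VEGFR3fl/fl and 279.2 to 1008 CPM in VEGFR3iLECko. In each injured group the library with the highest sum, replicate 3, also had the highest Hp level. In Sham, replicate 3 had the highest sum of all libraries, 1201 CPM, with Hp at 0.619 CPM, below the 1.07 CPM of Sham replicate 2. The part of blood in these values was not tested.

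Hpx encodes hemopexin, which carries free heme to the receptor LRP1. Unlike Hp it did not pass the test in any comparison. Its levels were 2.10, 2.54 and 1.41 CPM in Sham, 2.18, 1.46 and 1.15 CPM in injured VEGFR3fl/fl and 1.99, 1.53 and 1.90 CPM in VEGFR3iLECko, and the groups overlapped throughout. The log2 fold change was -0.34 ± 0.32 SE for injured versus Sham VEGFR3fl/fl (adjusted p = 0.394), 0.18 ± 0.33 SE between the injured genotypes (adjusted p = 0.765) and -0.16 ± 0.32 SE for VEGFR3iLECko versus Sham (adjusted p = 0.695). In Sham, Hpx was the higher of the 2 scavenger genes per length, at 3.84 approximate TPM (counts scaled by transcript length and library total) against 1.42 for Hp, and in injured VEGFR3fl/fl the order was reversed, at 2.44 against 66.8.

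Orm1 encodes orosomucoid (α1-acid glycoprotein). It was at 0.111, 0.452 and 0 CPM in Sham, 11.9, 3.57 and 2.93 CPM in injured VEGFR3fl/fl and 3.39, 2.38 and 1.44 CPM in VEGFR3iLECko. All injured libraries exceeded all Sham libraries, and VEGFR3iLECko replicate 3, the highest library for Saa3 and Hp, was the lowest injured library for Orm1. Injured versus Sham VEGFR3fl/fl gave a log2 fold change of 4.99 ± 0.90 SE (adjusted p = 0.00113), VEGFR3iLECko versus Sham 3.63 ± 0.91 SE (adjusted p = 0.00780), and the injured genotypes differed by -1.35 ± 0.69 SE (adjusted p = 0.251). The neighboring gene Orm2 had 1, 3 and 0 counts in Sham, 2, 3 and 0 in injured VEGFR3fl/fl and 0 in each VEGFR3iLECko library, where 0 counts allow up to 0.170 to 0.175 CPM. At this depth no change of Orm2 was detectable. Orm1 and Orm2 share 20.4% of 50-base windows, and the near-0 Orm2 counts limit how many Orm1 reads it could account for.

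Cp encodes ceruloplasmin, a ferroxidase that loads iron onto transferrin and works with the iron exporter ferroportin (Slc40a1). Like Serpina3n it was well expressed in Sham, but it was not called in injured versus Sham VEGFR3fl/fl. Its levels were 189.3, 131 and 199.6 CPM in Sham, 221.2, 150.7 and 185.9 CPM in injured VEGFR3fl/fl and 428.7, 339.5 and 490.5 CPM in injured VEGFR3iLECko. The first 2 groups overlapped and the VEGFR3iLECko libraries lay above both. Injured versus Sham VEGFR3fl/fl gave a log2 fold change of 0.10 ± 0.20 SE (adjusted p = 0.684), which was -0.08 when libraries were scaled by total counts alone. VEGFR3iLECko exceeded injured VEGFR3fl/fl 2.26-fold (1.17 ± 0.20 SE, adjusted p = 0.0384) and Sham 2.42-fold (1.28 ± 0.20 SE, adjusted p = 0.000672). The fold change between the injured genotypes held without any 1 library (log2 1.04 to 1.31), but the call held in only 2 of 9 such fits, those without Sham replicate 2 or injured VEGFR3fl/fl replicate 1, with adjusted p from 0.0355 to 0.110. It was also lost when only the 6 injured libraries were fitted (adjusted p = 0.101) and held with DESeq2 (adjusted p = 2.27e-06).

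**Figure D2:**
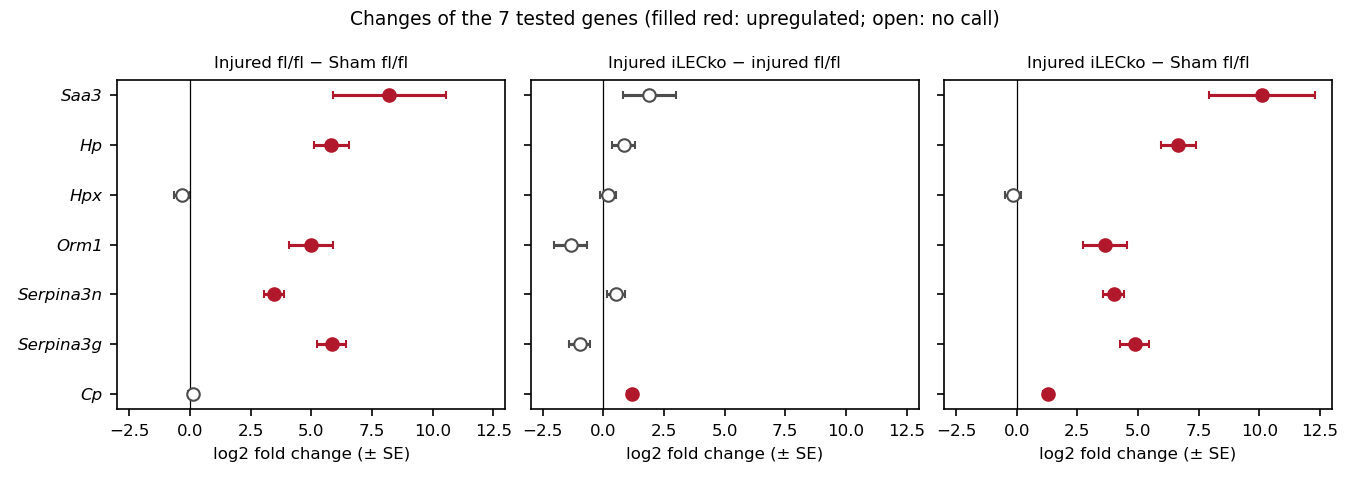
Log2 fold change with SE (x axis) of the 7 tested acute-phase genes (y axis) in the comparisons injured versus Sham VEGFR3fl/fl, injured VEGFR3iLECko versus injured VEGFR3fl/fl and injured VEGFR3iLECko versus Sham. Filled red points were upregulated and open points were not called. In the comparison of injured genotypes Cp, at 1.17, is the only filled point, while Orm1 (-1.35) and Serpina3g (-0.98) lie below 0 without a call.

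Among the 6 injured libraries, the highest value of each tested gene fell in 1 of 2 libraries. VEGFR3iLECko replicate 3 was highest for Saa3, Hp, Serpina3n and Cp, and injured VEGFR3fl/fl replicate 1 for Serpina3g, Orm1 and Hpx. Of all tested genes, 16.2% were highest in the former and 29.8% in the latter. Saa3 varied most, its highest library being 24.1 times its lowest, followed by Orm1 at 8.31 times, Serpina3g at 4.97 times and Hp at 4.66 times. Neutrophil markers also differed between these libraries. The 10 markers summed to 944.7 CPM in VEGFR3iLECko replicate 3 against 92.7 to 321.3 CPM in the other injured libraries and 0.775 to 1.86 CPM in Sham, and the defining marker Ly6g was at 4.95 CPM there against 0.176 to 0.396 CPM. That sum was led by S100a9 (481.1 CPM) and S100a8 (264.4 CPM), whereas the granule genes Ngp, Camp and Ltf were higher in VEGFR3iLECko replicate 2 (12.3, 2.60 and 6.17 CPM) than in replicate 3 (3.63, 1.21 and 1.15 CPM). Injured VEGFR3fl/fl replicate 1 had the lowest neutrophil sum of the injured libraries, 92.7 CPM, and the highest macrophage sum, 20720 CPM, of which Lyz2 made up 17610 CPM. The macrophage markers Adgre1 (131.5 CPM), Csf1r (310.8 CPM), Mrc1 (98.8 CPM) and Mertk (109.5 CPM) were lowest there among the injured VEGFR3fl/fl libraries. Cd68 (787.8 CPM), C1qb (983.7 CPM) and Cx3cr1 (47.4 CPM) were, like Lyz2, highest there, and C1qa and Fcgr1 lay between the other libraries. The part of these cells in the values of Saa3, Hp, Serpina3n, Orm1 and Serpina3g was not tested.

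**Figure D3:**
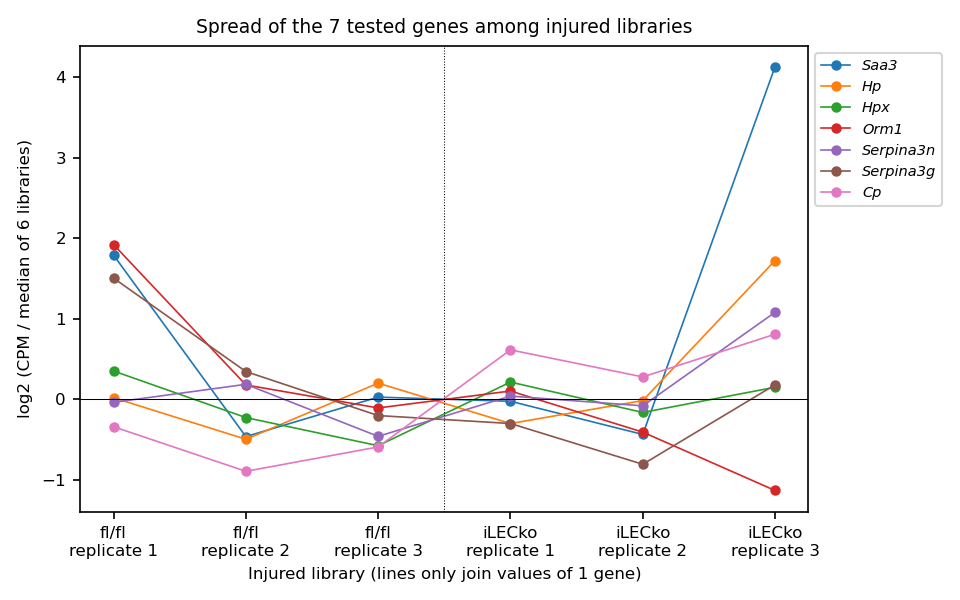
Level of the 7 tested acute-phase genes in each of the 6 injured libraries (x axis), as log2 of the CPM over the median of those libraries (y axis). Lines join the values of 1 gene. Saa3 (4.13), Hp (1.72) and Serpina3n (1.08) peak in VEGFR3iLECko replicate 3, where Orm1 has its lowest value (-1.13), and Orm1 (1.92), Saa3 (1.79) and Serpina3g have high values in injured VEGFR3fl/fl replicate 1.

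Corrected for transcript length, the genes covered a wide range in injured VEGFR3fl/fl irises. Serpina3n was highest at 7181 ± 1644 approximate TPM (SD, n = 3), followed by Cp at 94.2 ± 12.4, Hp at 66.8 ± 16.5, Serpina3g at 24.7 ± 13.4, Orm1 at 17.7 ± 13.0, Saa3 at 13.5 ± 10.6 and Hpx at 2.44 ± 0.61. The levels of Serpina3g, Orm1 and Saa3 differed by less than the SD of Serpina3g. In Sham irises Serpina3n (803) and Cp (109) led as well, and each of the others was at 3.84 or below. With median in place of longest transcript lengths, Serpina3n fell to 3178 and Cp stood at 156 in injured VEGFR3fl/fl, so only the large gaps in this order are independent of the transcript chosen.

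The 250 bases upstream of the RefSeq start sites were read for 8 of the 10 genes (GRCm38.p6), because several of these genes rose after injury. No such sequence was at hand for Hp and Orm1, which also rose, so these genes were not searched. The windows were searched on both strands for letters of the elements through which the acute-phase cytokines act, GGNNTTNCC (NF-κB), TTCNNNGAA (STAT) and TTGCNNAA (C/EBP). Of 32851 such windows in the genome, 13.5% held the first, 7.02% the second and 9.56% the third. The first was found for Saa3, Serpina3n, Serpina3g and 1 of 2 Cp starts, the second for Serpina3g, and the third for Saa1, Saa2, Saa3, Hpx, Orm2 and the same Cp start. Printed here are 3 genes that rose after injury, then Cp at the start with matches and Hpx, which were not called after injury, with the matched letters in capitals. Saa3 lies at chr7:46715677-46715926 (minus strand), Serpina3n at chr12:104406458-104406707 (plus), Serpina3g at chr12:104235897-104236146 (plus), Cp at chr3:19956999-19957248 (plus) and Hpx at chr7:105600117-105600366 (minus), each written 5′ to 3′ toward the gene.
Saa3: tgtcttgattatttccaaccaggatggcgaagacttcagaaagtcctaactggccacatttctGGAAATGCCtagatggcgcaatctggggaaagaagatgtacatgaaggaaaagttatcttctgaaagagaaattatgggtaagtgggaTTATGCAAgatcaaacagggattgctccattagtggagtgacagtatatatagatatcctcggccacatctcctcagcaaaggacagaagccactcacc
Serpina3n: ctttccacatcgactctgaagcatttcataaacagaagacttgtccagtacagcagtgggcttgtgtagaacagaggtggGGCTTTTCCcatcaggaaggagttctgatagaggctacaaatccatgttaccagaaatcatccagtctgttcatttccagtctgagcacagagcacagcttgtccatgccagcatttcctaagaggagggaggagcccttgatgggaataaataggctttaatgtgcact
Serpina3g: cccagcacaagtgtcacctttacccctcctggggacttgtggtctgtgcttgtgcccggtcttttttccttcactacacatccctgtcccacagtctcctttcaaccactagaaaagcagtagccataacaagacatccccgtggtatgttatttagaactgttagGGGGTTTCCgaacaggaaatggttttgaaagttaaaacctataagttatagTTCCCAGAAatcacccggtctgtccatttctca
Cp: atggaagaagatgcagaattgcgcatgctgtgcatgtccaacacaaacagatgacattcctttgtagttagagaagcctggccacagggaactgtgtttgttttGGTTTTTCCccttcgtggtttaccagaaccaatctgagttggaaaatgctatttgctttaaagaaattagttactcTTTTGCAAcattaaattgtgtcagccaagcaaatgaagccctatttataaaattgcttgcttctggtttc
Hpx: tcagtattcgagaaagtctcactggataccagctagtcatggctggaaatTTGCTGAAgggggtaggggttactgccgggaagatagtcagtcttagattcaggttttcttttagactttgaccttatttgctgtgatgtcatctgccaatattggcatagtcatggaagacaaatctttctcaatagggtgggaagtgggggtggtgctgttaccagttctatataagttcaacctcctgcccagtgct
The NF-κB letters began 187 bases before the start site in Saa3, 170 in Serpina3n, 84 in Serpina3g and 146 in Cp, and the STAT letters of Serpina3g began 33 bases before it. Hpx held C/EBP letters 200 bases upstream, as Saa3 did at 99 and Cp at 70. The other annotated Cp start, 195 bases further upstream, had none of these letters in its window.

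Of 12 listed cytokines that switch these genes on, 10 were tested, and 7 were upregulated and 2 downregulated after injury (median log2 fold change 2.72). Of all tested genes, 22.1% were upregulated and 17.5% downregulated. Il6 was at 0.0554, 0 and 0 CPM in Sham, 1.15, 3.57 and 2.70 CPM in injured VEGFR3fl/fl and 16.5, 14.5 and 14.7 CPM in VEGFR3iLECko, so the 3 groups did not overlap. Injured versus Sham VEGFR3fl/fl had 127 Il6 reads against 1, a ratio of 133 (95% interval 23.5 to 5310, counting error only). The edgeR test, which takes the spread between libraries into account, gave an adjusted p of 5.38e-05. Il1b (log2 fold change 6.54 ± 0.57 SE), Il1a (5.36 ± 0.27 SE) and Osm (5.17 ± 0.25 SE), further inducers of the response, rose too, while the neurotrophic cytokines Cntf (-1.51 ± 0.09 SE) and Ctf1 (-0.82 ± 0.22 SE) fell. Between the injured genotypes 0.573% of all tested genes were upregulated and 0.466% downregulated, and lists of this size would hold few calls at that rate. Il6 was the 1 of 10 called there by edgeR, higher in VEGFR3iLECko by 2.62 ± 0.37 SE on the log2 scale (adjusted p = 0.0263). That call held in 4 of 9 fits without 1 library (adjusted p 0.0226 to 0.111), and was lost with only the 6 injured libraries (adjusted p = 0.0968).

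Receptors and transcription factors of these cytokines were examined next. Of 11 tested receptor genes, 7 were upregulated and 0 downregulated after injury (median 0.87), against 22.1% and 17.5% of all tested genes. Among the 7 were Tnfrsf1b (3.31 ± 0.12 SE), Il17ra (2.83 ± 0.16 SE), Osmr (2.61 ± 0.16 SE) and Il6ra (2.39 ± 0.22 SE). The common subunit gp130 (Il6st) passed with a smaller change of 0.67 ± 0.12 SE. Of 13 tested transcription factor and feedback genes, 6 were upregulated and 0 downregulated (median 0.54), and these included the feedback inhibitors Socs3 (3.01 ± 0.19 SE) and Socs1 (2.05 ± 0.30 SE) and the C/EBP genes Cebpa (2.64 ± 0.14 SE), Cebpb (2.55 ± 0.30 SE) and Cebpd (1.17 ± 0.27 SE). Stat3, which transmits the IL-6 signal, differed by 0.54 ± 0.07 SE (adjusted p = 0.000139), under the 1.5-fold limit. The liver factor Hnf4a had too few reads to be tested. Between the injured genotypes 0 of 11 receptors were called by edgeR (1 higher and 1 lower at an unadjusted p under 0.05, and 1 higher by DESeq2). At that unadjusted p with more than 1.5-fold change, 565 of all 15010 genes were higher and 493 lower. Cebpa was the only one of the 13 factors called there by edgeR, lower in VEGFR3iLECko (-0.78 ± 0.13 SE, adjusted p = 0.0384). The call held in 3 of 9 fits without 1 library and by DESeq2 (adjusted p = 3.98e-05). It was lost with only the 6 injured libraries (adjusted p = 0.1165). By the same unadjusted rule 1 of the 13 was higher and 2 were lower, and DESeq2 called 1 higher and 1 lower.

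Of the genes for partners of the acute-phase proteins, 14 of 18 tested were upregulated and 0 downregulated after injury (median 2.02), against 22.1% and 17.5% of all tested genes. The formyl peptide receptors, which bind serum amyloid A, changed by 5.14 ± 0.87 SE (Fpr2) and 5.36 ± 0.78 SE (Fpr1) on the log2 scale, and Gzmb, a target of Serpina3n, by 3.96 ± 0.49 SE. The hemopexin receptor Lrp1 rose by 0.91 ± 0.08 SE and the iron exporter Slc40a1, at 8.14 to 8.92 CPM in Sham, was at 47.3, 251.1 and 57.6 CPM in injured VEGFR3fl/fl (adjusted p = 0.000992). Heme oxygenase Hmox1 rose by 3.72 ± 0.87 SE, with 202.7, 1746 and 219.7 CPM in the injured VEGFR3fl/fl libraries against 52.6 to 58.4 CPM in Sham. The haptoglobin receptor Cd163 did not rise with Hp, at 6.92, 6.21 and 6.59 CPM in Sham and 0.607, 6.32 and 2.01 CPM in injured VEGFR3fl/fl (-1.14 ± 0.70 SE, adjusted p = 0.188). Elane, the neutrophil elastase gene, did not exceed 0.121 CPM. None of the 18 genes was called between the injured genotypes by edgeR, while 2 were lower in VEGFR3iLECko at an unadjusted p under 0.05 and by DESeq2. Of all 15010 genes, 493 were lower at that unadjusted p with more than 1.5-fold change.

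Of the other positive acute-phase genes, 15 of 19 tested were upregulated and 2 downregulated after injury (median log2 fold change 2.04), against 22.1% and 17.5% of all tested genes. The largest changes were in the IL-1 antagonist Il1rn (10.43 ± 0.78 SE), the calprotectin subunits S100a8 (7.74 ± 0.90 SE) and S100a9 (7.35 ± 0.96 SE), which are also neutrophil markers, and complement C3 (5.15 ± 0.66 SE). The metallothioneins Mt1 (-1.07 ± 0.14 SE) and Mt2 (-0.96 ± 0.18 SE) fell. The pentraxin Crp was at 0 CPM in both injured groups, and the fibrinogen genes Fga, Fgb and Fgg had too few reads to be tested. VEGFR3iLECko exceeded injured VEGFR3fl/fl for the endotoxin co-receptor Cd14 (0.86 ± 0.16 SE, adjusted p = 0.0407), at 79.5, 110.6 and 125.5 CPM against 60.7, 57.9 and 54.8 CPM. Without 1 library Cd14 was called in 1 of 9 fits. Its call was lost with only the 6 injured libraries (adjusted p = 0.113) and held by DESeq2 (adjusted p = 8.75e-05). Between the injured genotypes edgeR called 2 of these 19 genes higher and 0 lower, and DESeq2 called 2 higher and 1 lower. Negative acute-phase genes, which fall in the liver response, had 1 upregulated and 0 downregulated of 6 tested after injury (median -0.86). The upregulated gene was transferrin, Trf (0.89 ± 0.21 SE, adjusted p = 0.00541), which lost the call without injured VEGFR3fl/fl replicate 1.

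**Figure D4:**
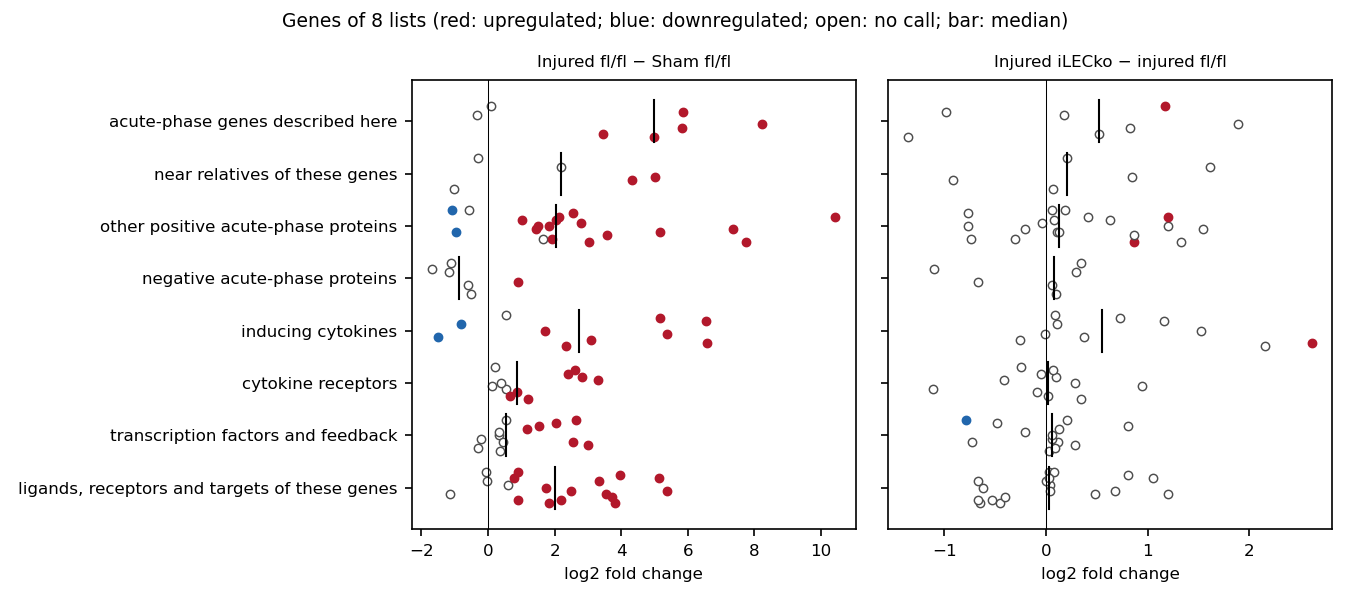
Log2 fold change (x axis) of each tested gene in 8 gene lists (y axis) for injured versus Sham VEGFR3fl/fl and for injured VEGFR3iLECko versus injured VEGFR3fl/fl, with a bar at each list's median. Red points were upregulated, blue downregulated and open points not called. After injury the medians of the lists run from -0.86 for negative acute-phase proteins to 4.99 for the 7 tested members, and between the injured genotypes they run from 0.02 to 0.55 with few filled points. Genes with few Sham reads that passed the count filter through the injured libraries could hardly be called downregulated after injury.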

How the data were processed

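RNA-seq of pooled mouse irises (BGISEQ-500, single-end 50-base reads) gave 9 libraries. Per the labels and the study's methods, the authors aligned reads with HISAT2 2.0.4 and Bowtie2 2.2.5 to mm10 and deposited expected counts per gene, of which 9.83% to 10.3% were not whole numbers; the counting program's name is not given in the sources used here, nor whether strand was used. The deposited combined table of the series was not used. Counts were rounded and tested with edgeR 4.0.16 (R 4.3.3; TMM scaling, filterByExpr with a minimum count of 10, glmQLFit and glmQLFTest on all 9 libraries, Benjamini-Hochberg adjustment over 15010 genes). A gene was called at an adjusted p under 0.05 and more than 1.5-fold change. CPM are on the TMM scale, and approximate TPM use GENCODE transcript lengths. On simulated data for the injury comparison the test recovered 87% of 200 genes changed 3-fold among 15010 genes. Alternatives were other scalings, filters, thresholds, a replicate block, DESeq2 1.42.0, the 6 libraries compared alone and each library left out; leaving libraries out for the other gene lists, and ratios of summed counts with exact intervals, were added after seeing the data. Libraries hold separate pools of irises per the study's methods. Samples that share a replicate number did not deviate together (correlations -0.35 to 0.18, with 1 of 9 pairs above 0.1). Genotype tags of some VEGFR3iLECko samples name other receptors, and titles were used for grouping. The genes described, the gene lists and the tests were chosen with earlier results of these data known. All 10 members are named; of longer lists, the 4 genes with the largest calls in each direction and a few regulators and partners are. Some genes of these lists are not reported here.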

Additional observations from a re-analysis of the deposited data

How the results depend on the processing

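The count of upregulated members was 5 after injury and 6 in VEGFR3iLECko versus Sham under other scalings, the replicate block (5 and 6), no fold limit and the 6-library fits, and ranged from 4 to 6 and 5 to 7 under all alternatives. Testing every gene with a count added Saa2, as did the lower filter of 7 fits without 1 library, an adjusted p under 0.01 dropped Saa3 after injury (adjusted p = 0.0135), and DESeq2, which gave Saa3 no adjusted p in these comparisons, called 4 and 5. Between the injured genotypes the count of upregulated members was 1 under the replicate block and DESeq2, and 0 with the 6 injured libraries alone and at an adjusted p under 0.01. Without 1 library it ranged from 0 to 1. No fit called a member downregulated. Fold changes that turned direction were those of Cp after injury (-0.080 by total counts and -0.065 to 0.23 without 1 library), of Saa3 (-1.01 to 2.88), Hp (-0.086 to 1.16) and Hpx (-0.015 to 0.47) between the injured genotypes without 1 library, and of Hpx in VEGFR3iLECko versus Sham (-0.36 to 0.038 without 1 library). None of these turned values passed the test, and the cause was not tested. Between the injured genotypes, 86 genes of all tested were upregulated and 70 downregulated, against 11 and 13 under the replicate block, 349 and 281 by DESeq2, 0 and 0 with the 6 libraries (487 and 392 at an unadjusted p under 0.05), 0 and 1 at an adjusted p under 0.01, and 0 to 174 and 0 to 149 without 1 library. By total counts 41 were downregulated, and without the fold limit 112. After injury, dropping the fold limit raised the downregulated genes from 2630 to 4269, and from 2259 to 3953 for VEGFR3iLECko versus Sham. Scaling by total counts alone moved the middle log2 value of all genes after injury from 0.01 to -0.16, and the share of called genes that rose from 55.8% to 44.1%. The paper mentions several sequencing experiments but does not tie them to sample numbers, so whether the block has a design behind it is not known. Counts under about 10 reads limit Saa1, Saa2 and Orm2.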
